A study of Mus musculus with 3 samples.

Results

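The cytosolic ribosomal protein genes were picked out of the deposited gene table by name: Rpl, Rplp or Rps followed by a number and, at most, a paralog ending, with copies marked -ps left out. Of 51826 genes in the table, 87 had such a name, 52 of the large subunit and 35 of the small. A gene counted as measured when at least 1 library held 20 or more counts. This was true of 82 of the 87 (49 large, 33 small) and of 18074 genes in all. GENCODE vM21, the annotation used for types and positions, calls 79 of the 82 protein-coding and 3 (Rps4l, Rpl6l and Rps3a2) processed pseudogenes. Just inside the limit lay Rps3a2, with 26, 25 and 35 counts in dE3, cKO and WT, and Rpl6l, with 41, 15 and 26. Just outside it lay Rps3a3, with 7, 10 and 7 counts. The other unmeasured genes were Rpl10l, Rpl3l and Rps12l1, listed at 0 in all 3 libraries, and Rpl39l, with 2 counts in dE3 and 0 in cKO and in WT.

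The 3 libraries, 1 per genotype, came from spinal cord of C57BL/6 embryos at embryonic day 13.5. The dE3 library is Nestin-Cre;Ctnnb1-floxed(Ex3), in which exon 3 of the β-catenin gene is deleted, a change the labels call gain of function. The cKO library is Nestin-Cre;Ctnnb1-floxed(Ex2-6), which lacks exons 2 to 6 and is called loss of function, and the WT library is wild type. Nestin-Cre is used to act in neural progenitors and their progeny. Which cells of the tissue kept an intact gene was not measured, and the labels do not give the number of embryos per library. With single libraries there is no spread between animals. No p-value was computed, every interval below covers counting error only, and each comparison is between these libraries. The dE3 and cKO comparisons with WT share the WT library, so a deviation of that library enters both.

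A ribosome is assembled in the nucleolus from ribosomal RNA and the proteins of a large and a small subunit, which the cell makes in matched amounts. Messenger RNAs of these proteins begin with a pyrimidine tract (the TOP motif) through which mTORC1 controls their translation, and Myc proteins raise transcription of many of the genes. When subunits are made unevenly, free Rpl5 and Rpl11 bind Mdm2 and stabilise p53. Mammalian genomes hold many processed pseudogenes, which are intronless copies of messenger RNAs inserted elsewhere, and ribosomal proteins have more of them than most families.

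The libraries held 34790053 (dE3), 33048837 (cKO) and 32167470 (WT) estimated counts, scaled by TMM to library size and given below as CPM. Ctnnb1 stood at 461 CPM in dE3, 422 in cKO and 544 in WT, and its gene total also counts exons outside the deleted parts. All 14 pan-neuronal and all 12 neural progenitor markers were measured, as the tissue label implies. The progenitor markers summed to 1635, 1557 and 1812 CPM in dE3, cKO and WT. In dE3 this list was split, with 6 of the 12 above WT and 6 below. At 2-fold, 4 were lower and 1 higher in dE3, and 0 either way in cKO (background in either direction 10.3% and 6.91%). The libraries also differed in RNA of surrounding tissues. The 14 skeletal muscle markers summed to 215 CPM in dE3, 56.3 in cKO and 16.6 in WT, where 3 of them were at 0, and 14 in dE3 and 11 in cKO were at least 2-fold above WT. The 14 cartilage markers summed to 1322, 620 and 284 CPM, and the 12 mesenchyme markers to 1428, 1639 and 746 CPM, in dE3, cKO and WT. The 8 measured epidermis markers summed to 26.8, 10.99 and 8.95 CPM, with 1 of them at 0 in WT, and 10 dorsal root ganglion markers to 795, 1213 and 1010.5 CPM. Mitochondrially encoded genes took 2.52%, 2.24% and 2.97% of counts. The 14 pan-neuronal markers summed to 11344, 14685 and 13580 CPM, and 24 genes of S, G2 and M phase to 1110, 767 and 707 CPM. The part of this tissue mix in the values below was not tested, and in bulk RNA fewer cells of a type cannot be told apart from less RNA per cell.

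Ribosomal protein genes took slightly more of the RNA in both mutant libraries than in WT. Their 82 measured genes summed to 20038 CPM in dE3, 19742 in cKO and 17776 in WT. As a share of all gene counts this was 2.02% in dE3 (exact binomial 95% interval 2.01 to 2.02), 1.97% in cKO (1.97 to 1.98) and 1.77% in WT (1.76 to 1.77). Per length, the median gene stood at 632 TPM, the authors' value per transcript length, in dE3, 639 in cKO and 559 in WT. The genes were highly expressed and short: 77 of the 82 had at least 1000 counts in every library, and their mean transcript length had a median of 800 bases, against 2548 for all measured genes.

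The order of levels was much the same in the 3 libraries. Rpl7a, Rplp0, Rpl13 and Rpl23a, all of the large subunit, were the 4 highest by TPM in each. Rpl7a stood at 1674 TPM in dE3, 1665 in cKO and 1522 in WT. Rplp0, which anchors the stalk that recruits elongation factors, stood at 1784, 1690 and 1507 TPM, so Rplp0 was first in dE3, Rpl13 (1758 TPM) in cKO and Rpl7a in WT. Rps7, the highest of the small subunit in WT, stood at 1515 TPM in dE3, 1326 in cKO and 1332 in WT. At the other end, Rpl6l and Rps3a2 stayed under 4 TPM, and the paralogs Rpl22l1, Rpl7l1 and Rps27l lay between 47.1 and 88.7 TPM. No counting interval was set on TPM values, since the deposited TPM carry no depth.

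**Figure D1:**
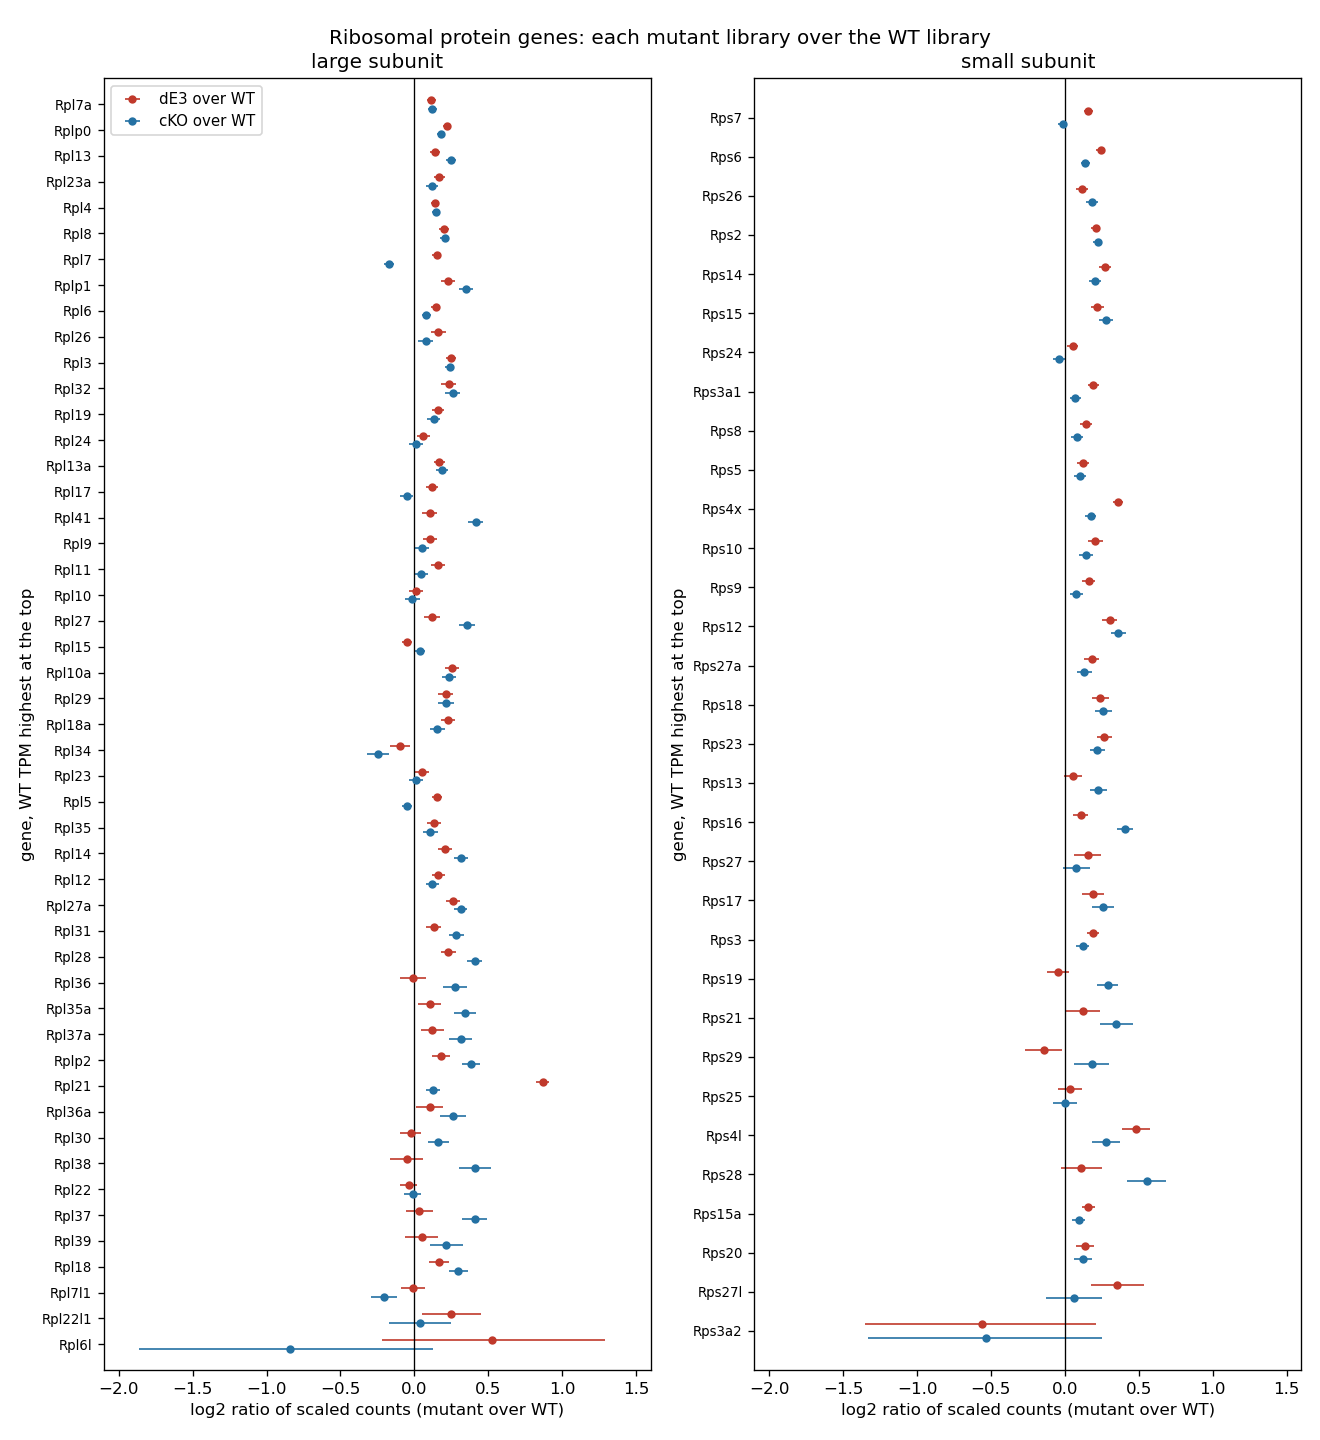
Log2 ratio of scaled counts to the WT library for the measured ribosomal protein genes reported here, dE3 in red and cKO in blue, large subunit on the left and small on the right, ordered by WT TPM. Points are ratios and lines are 95% counting intervals. Most points lie between 0 and 0.4, Rpl21 stands apart in dE3 at 0.87, and the wide lines at the bottom belong to Rpl6l and Rps3a2, which have few counts.

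Between dE3 and WT, 72 of the 82 genes had a ratio above 1, by a small amount. The background share of measured genes above 1 was 50.5%. The counting interval lay wholly above 1 for 65 genes (background 29.1%), below 1 for 3 (background 28.8%), and spanned 1 for 14. Counting intervals are narrower at higher counts, and here and below the background was not matched for counts. The median log2 ratio was 0.16, with quartiles of 0.10 and 0.22, against a median of 0.00 over all measured genes. The summed ratio was 1.13 (1.12 to 1.13). At 2-fold with an interval that excludes 1, 0 of the 82 were called, against 10.3% of all measured genes, and 5 were called at least 25% higher, against 17.3%, and 0 lower, against 15.3%. A gene called lower had to stand at least 20% below WT, the same distance as a ratio. So the shift was shared by most of the genes and large in few of them.

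The genes farthest above WT in dE3 included Rpl21 and several of the small subunit. Rpl21, a large subunit protein, had 12478 counts in dE3, 7020 in cKO and 6228 in WT, or 356, 213 and 195 CPM, and its ratio of dE3 to WT was 1.83 (1.77 to 1.88). That value depends on pseudogenes, as described next. Rps4l had 68.6 CPM in dE3 against 49.1 in WT, a ratio of 1.40 (1.31 to 1.49). Rps4x, the X-linked gene of which Rps4l is a copy, had 441 CPM against 343, a ratio of 1.28 (1.252 to 1.32). The paralog and its parent were thus both higher in dE3 than in WT. In cKO they were also above WT, by less, at ratios of 1.21 for Rps4l and 1.13 for Rps4x. Rps12 had 213 CPM in dE3, 222 in cKO and 172 in WT. Its ratio to WT was 1.23 (1.19 to 1.28) in dE3 and higher in cKO, at 1.29 (1.24 to 1.33). Rps14, whose loss causes the anaemia of the 5q- syndrome in people, had 366 CPM in dE3 and 303 in WT, a ratio of 1.21 (1.18 to 1.24). In cKO its ratio to WT was 1.15. Without the transcript that differed most, Rps14 stood at a log2 ratio of -0.78, while Rps4x stood at 0.91, so both values depend on which transcripts are counted. Here and below, that transcript was picked by its difference in these same libraries, and the remaining ones are often minor. The cause was not tested.

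Just 3 genes lay below WT with their whole interval in dE3. Rps29 had 29.9 CPM in dE3 and 33.0 in WT (ratio 0.907, 0.831 to 0.988), Rpl34 had 96.8 and 104 CPM (0.935, 0.891 to 0.981), and Rpl15 had 398 and 412 CPM (0.966, 0.943 to 0.990). None of these differences was large, and none kept its direction under every alternative. Without the transcript that differed most the log2 ratio was 1.35 for Rps29, 0.24 for Rpl34 and 0.02 for Rpl15, and Rpl34 also turned to 0.27 once pseudogene counts were added. As the transcript left out was picked by its difference, leaving it out does not decide the direction for Rps29 or Rpl15.

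Reads from a ribosomal protein messenger RNA and from its processed pseudogenes are hard to separate. The median measured gene shared 23.9% of its 50-base words with transcripts of another gene, and 48 of the 82 shared at least 20%. The other gene need not be a pseudogene. Rpl35 shared words with 12 genes, 7 of them pseudogenes, and most with Wdr38 (56.8%). Words were pooled over all annotated transcripts of a gene, so the share can be low despite near-identical copies, as for Rpl21 at 14.9%. A search of GENCODE pseudogenes with at least 20% of their words in a ribosomal protein gene gave 413, matched to 75 of the measured genes. All these pseudogenes together held 0.0401% of counts in dE3, 0.0482% in cKO and 0.0480% in WT, so they are a small part of the family's total. For a few genes they were a large part.

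Rpl21 (ENSMUSG00000041453, chr5:146832890-146837032, plus strand, GRCm38) is the clearest case. It had 41 matching pseudogenes, which took 4.26% of the counts of gene and pseudogenes together in dE3, 34.7% in cKO and 40.2% in WT. Gm13370 had 1 count in dE3, 898 in cKO and 1065 in WT. Gm10163 had 2, 897 and 1066 counts, and Gm10240 had 7, 880 and 1039. Each of these pseudogenes is nearly empty in dE3 and abundant in the other libraries, the reverse of Rpl21 itself. Rpl21-ps15 had 21, 224 and 241 counts. Summed with its pseudogenes, Rpl21 had 13033 counts in dE3, 10757 in cKO and 10419 in WT, and the ratio of dE3 to WT came to 1.14 (1.11 to 1.17) in place of 1.83. The log2 ratio fell by 0.68 to 0.19, close to the median of the other genes. Within Rpl21 the excess sat in transcript ENSMUST00000035983, with 11286 counts in dE3, 5853 in cKO and 5215 in WT, and without it the log2 ratio of dE3 to WT was 0.10.

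The sequences show how little separates gene and copies. Over the 480-base coding sequence of Rpl21, Gm13370, Gm10163 and Gm10240 were each 99.58% identical to it, with the differences T336C and T432C, counted from the A of the start codon as position 1, Rpl21's base first. Rpl21-ps15 had T336C, G378A and T432C. The stretch below covers coding positions 319 to 378 on the coding strand, in exon 5 of Rpl21, and is shown because it holds 2 of these differences. Capitals mark the positions at which a copy differs from the gene (for Rpl21 the positions at which any copy differs). All are from GRCm38: Rpl21 at chr5:146835640-146835699, Gm13370 at chr2:24986302-24986361, Gm10163 at chr9:88391155-88391214, Gm10240 at chr15:68310137-68310196, each on the plus strand, and Rpl21-ps15 at chrX:151215272-151215331 on the minus strand.
Rpl21: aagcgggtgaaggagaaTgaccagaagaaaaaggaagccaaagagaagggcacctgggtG
Gm13370: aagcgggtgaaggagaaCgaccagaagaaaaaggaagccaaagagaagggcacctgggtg
Gm10163: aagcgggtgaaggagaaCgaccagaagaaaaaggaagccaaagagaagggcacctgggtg
Gm10240: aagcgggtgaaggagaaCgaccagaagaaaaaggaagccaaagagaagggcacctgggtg
Rpl21-ps15: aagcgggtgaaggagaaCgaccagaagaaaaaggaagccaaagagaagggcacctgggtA

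Other families moved as well when pseudogenes were added, in either direction. The shift exceeded 0.1 on the log2 scale for 5 genes in dE3 against WT (Rpl21, Rpl29, Rpl34, Rps19 and Rps3a2) and for 3 in cKO against WT (Rpl21, Rpl34 and Rps3a2). Rpl34, a large subunit gene on chromosome 3, had 3392 counts in dE3, 2881 in cKO and 3308 in WT, while its copy Rpl34-ps1 on chromosome 6 had 1369, 1631 and 338. The copy was thus high in both mutant libraries and low in WT. Alone, Rpl34 was below WT in both comparisons. With its pseudogenes, it was above WT, at a ratio of 1.21 (1.16 to 1.26) for dE3 and 1.22 (1.17 to 1.28) for cKO. The coding sequences of gene and copy differ at 2 of 351 bases, T132C and C318G. The stretch of positions 73 to 132, in exon 3 of Rpl34, shows the first of these (Rpl34 at chr3:130729084-130729143, minus strand; Rpl34-ps1 at chr6:71124682-71124741, plus strand).
Rpl34: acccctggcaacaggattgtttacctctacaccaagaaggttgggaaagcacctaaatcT
Rpl34-ps1: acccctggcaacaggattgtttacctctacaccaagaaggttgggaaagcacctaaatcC

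Rps19, the gene most often mutated in Diamond-Blackfan anaemia, had 2948 counts in dE3, 3512 in cKO and 2778 in WT. Its copy Rps19-ps6 had 624 counts in dE3, 1 in cKO and 69 in WT, so it was highest in dE3 and nearly absent in cKO. With its pseudogenes the ratio was 1.14 for dE3 and 1.19 for cKO over WT, where the gene alone gave log2 ratios of -0.05 and 0.29. For Rpl29 the copies Gm8210 (19, 593 and 526 counts in dE3, cKO and WT) and Gm13841 (52, 437 and 358) behaved as those of Rpl21 did. With them the dE3 ratio of Rpl29 was 0.991 (0.957 to 1.03), against a log2 ratio of 0.21 for the gene alone. Rpl30 was affected between the mutants, as its copy Gm12191 had 344 counts in dE3, 16 in cKO and 167 in WT. Rps19 and Rps19-ps6 differ at 5 of 435 coding bases (C6T, T273C, G369A, G372A and C390T), and coding positions 1 to 60 show the first (Rps19 at chr7:24885136-24885195, Rps19-ps6 at chr12:110898114-110898173, both on the plus strand).
Rps19: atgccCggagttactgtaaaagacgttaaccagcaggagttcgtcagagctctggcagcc
Rps19-ps6: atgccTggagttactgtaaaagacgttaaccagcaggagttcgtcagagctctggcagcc

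With all matching pseudogenes added, the family median was 0.16 for dE3 and 0.17 for cKO. Among the 34 measured genes that share less than 20% of their words, a set that still holds Rpl21, Rpl34 and Rps19, it was 0.12 in dE3 and 0.16 in cKO, with 29 of 34 and 30 of 34 above 1.

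**Figure D2:**
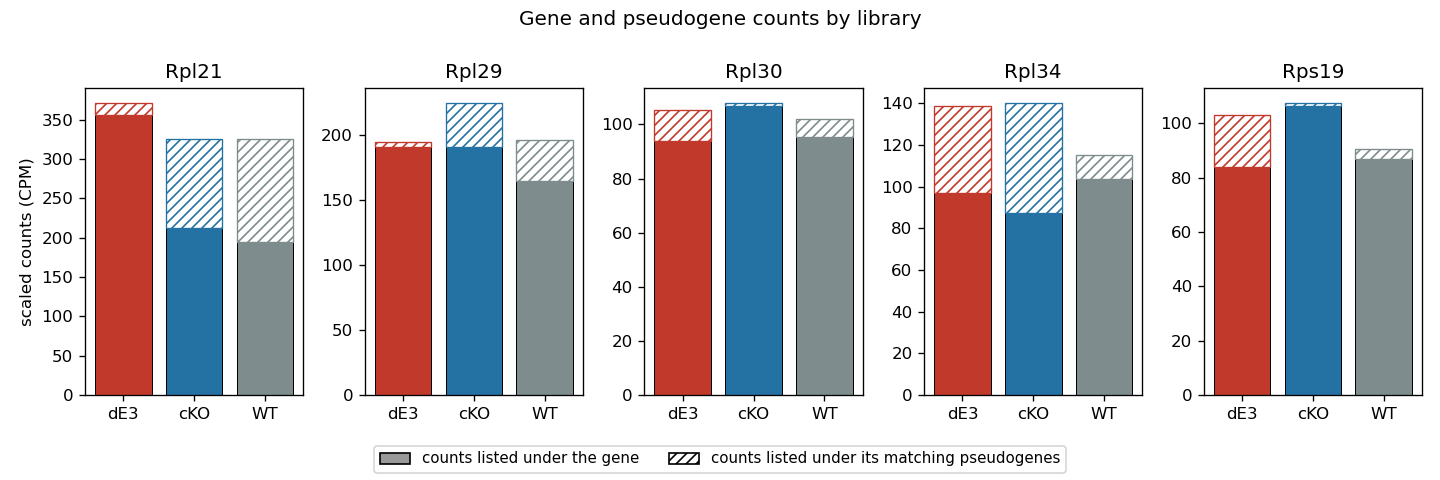
Scaled counts (CPM, axis from 0) in the dE3, cKO and WT libraries for the 5 measured genes with 100 or more counts whose log2 ratios moved by over 0.1 when pseudogenes were added. Filled bars are counts listed under the gene and hatched bars those under its matching pseudogenes. For Rpl21 the pseudogenes hold 40.2% of the WT bar and 4.26% of the dE3 bar, and the bar tops differ far less than the filled parts.

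Between cKO and WT, 71 of the 82 genes had a ratio above 1, where 50.3% of all measured genes did. The interval lay above 1 for 64 (background 27.2%), below 1 for 5 (background 26.7%) and spanned 1 for 13. The median log2 ratio was 0.17 (quartiles 0.08 and 0.28), against 0.00 over all measured genes, and the summed ratio was 1.11 (1.11 to 1.11). At 2-fold 0 of the 82 were called, against 6.91% of all measured genes. At least 25% higher were 12, against 12.9%, and 0 were lower, against 12.4%. Higher calls of this size were thus about as frequent as among all genes, and lower calls were less frequent.

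The genes farthest above WT in cKO came from both subunits, and their mean transcript lengths ran from 391 to 998 bases. Rps28 had 26.0 CPM in dE3, 35.3 in cKO and 24.1 in WT, and its ratio of cKO to WT was 1.47 (1.34 to 1.61). Rpl41, which encodes the smallest ribosomal protein, had 184, 228 and 171 CPM, a ratio of 1.33 (1.29 to 1.38). For both genes cKO was the high library and dE3 lay near WT. Rpl37 had 61.8 CPM in dE3, 80.2 in cKO and 60.4 in WT (cKO to WT 1.33, 1.252 to 1.41). Rpl28 had 196, 221 and 167 CPM (1.33, 1.28 to 1.38). Rps16 had 179, 220 and 166 CPM (1.33, 1.28 to 1.37), and Rplp2, a stalk protein, had 142, 163 and 125 CPM (1.31, 1.253 to 1.36). Leaving out the transcript that differed most took the log2 ratio of Rps16 to 0.01 and that of Rplp2 to 0.08, while those of Rpl28, Rpl37, Rpl41 and Rps28 stayed between 0.41 and 0.51.

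In cKO 5 genes lay below WT with their whole interval, all of the large subunit. A ratio below 1 by any amount was found for 11 genes, 8 of the large subunit and 3 of the small. Rpl34, treated above, had 87.2 CPM in cKO against 104 in WT (ratio 0.843, 0.801 to 0.886). Rpl7 had 481 CPM in dE3, 385 in cKO and 433 in WT, a ratio of cKO to WT of 0.888 (0.867 to 0.910), and its paralog Rpl7l1 had 71.6, 62.5 and 72.0 CPM, a ratio of 0.868 (0.818 to 0.921). Gene and paralog were both lowest in cKO. Rpl5 had 376 CPM in cKO and 389 in WT (0.967, 0.943 to 0.991), and Rpl17 had 234.6 and 243 CPM (0.964, 0.934 to 0.995). Without its most different transcript Rpl5 stood at a log2 ratio of 0.11.

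Transcript length went with the cKO ratios, within the family and outside it. The 8 ribosomal protein genes with a mean transcript length under 500 bases had a median log2 ratio of cKO to WT of 0.31, the 22 between 500 and 700 bases 0.24, and the 32 between 700 and 1000 bases 0.14. Other protein-coding genes with at least 100 counts had medians of 0.30 (28 genes), 0.18 (141 genes) and 0.13 (455 genes) in the same length classes, and 0.03 (1662 genes) between 1500 and 2000 bases. With at least 1000 counts required, the other genes stood at 0.06 under 500 bases, in 6 genes only, at 0.18 (54 genes) between 500 and 700 bases and at 0.15 (151 genes) between 700 and 1000 bases. So in cKO the ribosomal protein genes lay near other genes of their length from 500 to 1000 bases, and above them from 1000 to 1500 bases, at 0.17 (10 genes) against 0.06 (1244 genes). These lengths are means over a gene's transcripts weighted by the authors' TPM, so long transcripts can move a gene to a higher class. The part of this in the difference from 1000 to 1500 bases was not tested.

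In dE3 other short genes lay near or below WT. Their medians were -0.09 (28 genes), -0.02 (141 genes) and 0.04 (455 genes) in the 3 shortest classes, where the ribosomal protein genes stood at 0.05, 0.17 and 0.16. From 1000 to 1500 bases the medians were 0.21 (10 genes) against 0.03 (1244 genes). Across the 82 genes Spearman's rho between length and log2 ratio was 0.13 for dE3 and -0.28 for cKO, given as a description of genes that share the same libraries. The role of fragment length or RNA quality in this pattern was not tested, and the library tag, L3 for cKO and L2 for dE3 and WT, cannot be told apart from the cKO genotype.

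**Figure D3:**
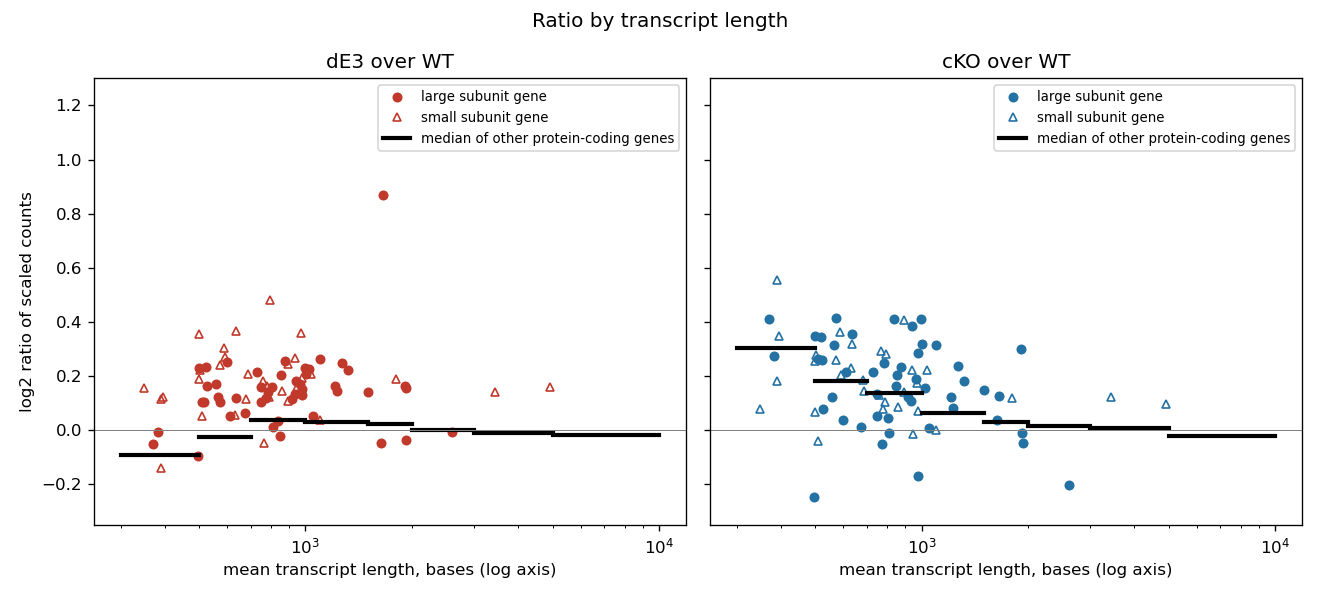
Log2 ratio to WT of each ribosomal protein gene with at least 100 counts in a library against its mean transcript length (log axis, bases), dE3 on the left and cKO on the right. Black lines are medians of other protein-coding genes in each length class, open triangles small subunit genes. In cKO the black line descends from 0.30 under 500 bases to 0.03 at 1500 to 2000 bases and many points lie near it, while in dE3 the line stays between -0.09 and 0.04.

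Set against each other, the mutant libraries differed little over the family and clearly for some genes. Of the 82 genes, 43 had a ratio of dE3 to cKO above 1, against 51.8% of all measured genes, and the median log2 ratio was 0.02, the same as over all measured genes. At 2-fold 1 gene was called, Rpl6l with 41 counts in dE3 and 15 in cKO, against 11% of all measured genes, and it shares 76.4% of its words, above all with Rpl6. At least 25% higher in dE3 were 3 genes (background 20.2%), and 5 were lower by the inverse (background 18.1%). The higher ones were Rpl6l, Rpl21 at 1.67 (1.63 to 1.72), which came to 1.14 with its pseudogenes, and Rpl7, with 481 CPM in dE3 and 385 in cKO (interval of the ratio 1.22 to 1.28). Rpl5 followed at 1.15 (1.12 to 1.18), with 433 CPM in dE3 and 376 in cKO.

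The genes lowest in dE3 relative to cKO had mean transcript lengths of 371 to 835 bases. Rpl38, needed for translation of a subset of Hox messenger RNAs in the mouse embryo and mutated in Tail-short mice, had 1325 counts in dE3, 1720 in cKO and 1253 in WT, and its ratio was 0.726 (0.675 to 0.780) for dE3 to cKO and 1.33 (1.23 to 1.43) for cKO to WT. Rps28 was at 0.736 (0.675 to 0.804) and Rpl37 at 0.771 (0.728 to 0.816). For all 3 the WT library lay near dE3, and cKO was the library that stood apart. Rps19 was at 0.791 (0.753 to 0.831) by its own counts, and at a log2 ratio of -0.06 with its pseudogenes.

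The large and small subunits were shifted by about the same amount. The median log2 ratio of dE3 to WT was 0.14 for 49 large subunit genes and 0.16 for 33 small ones, and that of cKO to WT was 0.16 and 0.17. Between dE3 and cKO the medians were -0.00 for the large and 0.04 for the small subunit. The quartiles overlapped in each case, at 0.10 to 0.21 for large and 0.12 to 0.24 for small in dE3, and at 0.04 to 0.28 and 0.08 to 0.26 in cKO. Summed over genes, the ratio to WT was 1.12 (1.11 to 1.12) for the large and 1.14 (1.14 to 1.15) for the small subunit in dE3, and 1.11 in both for cKO. Large subunit genes made up 62.4% (62.3 to 62.6) of the family's counts in dE3, 62.8% (62.7 to 62.9) in cKO and 62.9% (62.8 to 63.0) in WT. The balance between subunits thus moved by less than 0.5 percentage points by these counts. With pseudogenes added it was 62.7%, 63.3% and 63.4%, and by TPM 59.4%, 60.1% and 60.2%, in dE3, cKO and WT, so the differences were somewhat wider.

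The P stalk genes and the 5S RNP genes stand for defined parts of the large subunit. Rplp0 had 32733 counts in dE3, 29994 in cKO and 25619 in WT, with a ratio to WT of 1.16 for dE3 and 1.13 for cKO. Rplp1 had 8228, 8417 and 6405 counts, with ratios of 1.17 and 1.27, and Rplp2 4965, 5389 and 3995, with ratios of 1.13 and 1.31. The stalk genes were higher than WT in both mutant libraries, and the acidic proteins Rplp1 and Rplp2 more so in cKO. Of the 5S RNP, Rpl5 had ratios to WT of 1.11 in dE3 and 0.967 in cKO, and Rpl11, with 8604, 7483 and 7022 counts in dE3, cKO and WT, of 1.12 and 1.03. In dE3 both partners lay near the family median, and in cKO both lay under it.

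Several ribosomal protein genes have a paralog, and most paralogs kept a similar share of their pair's counts. These shares describe RNA only, and whether a paralog's product enters the ribosome was not tested. Rpl22l1 made up 8.70% (7.97 to 9.48) of the counts of Rpl22 and Rpl22l1 in dE3, 7.46% (6.76 to 8.21) in cKO and 7.24% (6.54 to 7.99) in WT. Rps27l made up 21.4% (19.9 to 22.9) of the Rps27 pair in dE3, 19.0% (17.5 to 20.6) in cKO and 19.2% (17.6 to 20.8) in WT. For both pairs the dE3 share was the highest, with intervals that overlap those of the other libraries. Rps27l is also a p53 target. Rps4l made up 13.5% (13.0 to 14.0), 13.3% (12.8 to 13.9) and 12.5% (11.9 to 13.1) of its pair with Rps4x, and Rpl7l1 12.95% (12.5 to 13.4), 14.0% (13.4 to 14.5) and 14.3% (13.7 to 14.8) of its pair with Rpl7, in dE3, cKO and WT. The Rpl7l1 share was thus lower in dE3 than in WT, with intervals that do not overlap. Per length, from TPM, Rpl22l1 made up 22.9% of its pair in dE3, 20.9% in cKO and 20.1% in WT, and Rpl7l1 5.29%, 5.65% and 5.85%.

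The paralogs known from muscle and testis were absent or nearly so. Rpl3l, a muscle paralog of Rpl3, was at 0 in each library, which allows a share of up to 0.0175% of the pair's counts in dE3, 0.0187% in cKO and 0.0227% in WT. Rpl10l, which replaces X-linked Rpl10 in the male germ line, was also at 0, which allows up to 0.0393%, 0.0424% and 0.0434%. Rpl39l, another testis paralog, had 0.147% (0.0178 to 0.531) of its pair in dE3, and 0 counts allow up to 0.209% in cKO and 0.251% in WT. Rpl3l therefore gave no count even in dE3, where the skeletal muscle markers were at their highest.

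The 5 genes of cytosolic ribosomal proteins whose symbols lack the pattern were also above WT in both mutant libraries. Their median log2 ratio was 0.17 in dE3, near the 0.16 of the family. In cKO it was 0.33, against 0.17, and 3 of the 5 were at least 25% higher (background 12.9%). Rpsa, the laminin receptor gene, had 764 CPM in dE3, 702 in cKO and 681 in WT, with ratios to WT of 1.12 and 1.03. Rack1, a scaffold on the small subunit, had 423, 387 and 360 CPM, with ratios of 1.17 and 1.07. Both were nearer to WT in cKO than in dE3. The reverse held for genes whose transcripts are short. Fau, which encodes a ubiquitin-like fusion of a small subunit protein, had 159, 191 and 150 CPM (ratios 1.06 and 1.28). Rpl36al, of the large subunit, had 49.4, 54.2 and 42.8 CPM (1.16 and 1.27).

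By list medians, genes that act around the ribosome were nearer to WT than the ribosomal protein genes themselves. The lists were not matched for transcript length, with which the cKO ratios went. The 53 measured genes of ribosome assembly and rRNA processing had medians of 0.07 in dE3 and -0.03 in cKO on the log2 scale, with 1 gene higher and 1 lower by the 25% rule in dE3 and 4 higher and 2 lower in cKO. For every list, the background for this rule is the share of all measured genes, 17.3% higher and 15.3% lower in dE3 and 12.9% and 12.4% in cKO. Utp4, of the small subunit processome, had 35.0 CPM in dE3, 24.8 in cKO and 26.0 in WT (dE3 to WT 1.35, 1.23 to 1.47), and Npm1, the nucleolar chaperone nucleophosmin, had 368, 287 and 309 CPM (1.19, 1.16 to 1.22). The 19 genes of RNA polymerase I and rDNA transcription had medians of 0.12 in dE3 and 0.06 in cKO, with 0 genes called by that rule in dE3 and 1 in each direction in cKO. Ubtf, the rDNA activator, stood at 1.13 (1.09 to 1.17) in dE3 with 167 CPM against 148 in WT, and Taf1d, a subunit of the polymerase I selectivity factor, had 48.6 CPM in dE3, 29.3 in cKO and 43.3 in WT (cKO to WT 0.677, 0.623 to 0.735).

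Translation factors and the mitochondrial ribosome gave a mixed picture. The 39 initiation factor genes had medians of 0.05 in dE3 and 0.03 in cKO. By the 25% rule 1 was higher in dE3 and 2 in cKO, and 0 were lower in either. Eif4ebp1, an mTORC1-controlled inhibitor of cap binding, had 5.65 CPM in dE3, 5.97 in cKO and 2.88 in WT, so it was about as high in both mutants (ratios 1.96, 1.52 to 2.54, and 2.07, 1.61 to 2.68). Pabpc1, the poly(A) binding protein and itself a TOP messenger RNA, had 526, 479 and 429 CPM (dE3 to WT 1.23, 1.20 to 1.26). The 11 elongation factor genes had medians of 0.06 and 0.09, with 0 higher and 2 lower in dE3 and 1 higher and 0 lower in cKO. Eef1a2, the neuronal and muscle form of elongation factor 1A, had 115 CPM in dE3, 200 in cKO and 155 in WT, and Eef2 had 2791, 3184 and 2724 CPM. The 78 mitochondrial ribosomal protein genes summed to 2065 CPM in dE3, 2131 in cKO and 2065 in WT, with medians of -0.03 and 0.05. Their 3 higher and 2 lower genes in dE3, and 5 and 1 in cKO, were few beside the background shares. The cytosolic family's shift was thus not seen in the mitochondrial one in dE3.

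Of the regulators, the 14 genes of mTORC1 and S6 kinase had medians of 0.07 in dE3 and 0.08 in cKO, with 1 higher and 0 lower in dE3 and 2 higher and 1 lower in cKO by the 25% rule (background 17.3% and 15.3%, 12.9% and 12.4%). The 10 Myc network genes had medians of 0.18 and 0.05, with 4 higher and 1 lower in dE3 and 3 higher and 0 lower in cKO. Myc had 18.4 CPM in dE3, 23.3 in cKO and 24.2 in WT, Mycn 66.0, 55.9 and 52.2, and Mycl 167, 123 and 73.8. Mycl and Mycn were thus highest in dE3 and Myc lowest there. Of 18 p53 target genes, 4 were higher and 0 lower in dE3 and 0 higher and 2 lower in cKO, with medians of 0.02 and -0.08. In so short a list these counts differ from the background by a few genes. Cdkn1a, the p21 cell cycle inhibitor, had 52.9, 18.6 and 17.1 CPM in dE3, cKO and WT. The 14 housekeeping genes had medians of 0.03 in dE3 and 0.07 in cKO. In dE3 24 of 24 genes of S, G2 and M phase had an interval above 1 (background 29.1%), with a median of 0.67, and in cKO 11 of 24 (background 27.2%), with 0.14, so the dE3 library held more RNA of these genes, whose part in the ribosomal protein values was not tested.

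**Figure D4:**
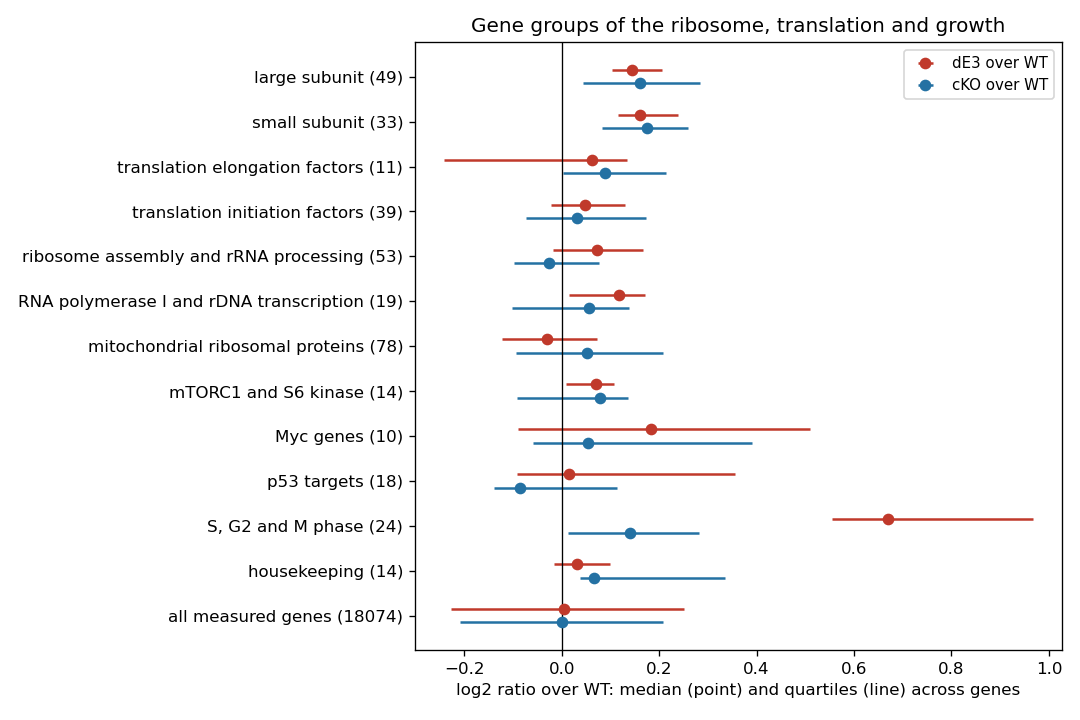
Median (point) and quartiles (line) of the log2 ratio to WT over genes of each list, dE3 in red and cKO in blue, with the number of measured genes in parentheses. The large and small subunit lines sit to the right of 0 in both libraries, with medians from 0.14 to 0.17, assembly, initiation and mitochondrial ribosomal lists straddle 0, and the S, G2 and M phase list stands apart in dE3 at 0.67.

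Promoter sequence was examined as a description of the genes, and the shares below do not use their ratios. RefSeq promoter windows (GRCm38.p6, 250 bases before to 50 after each start) were found for 59 of the genes, in 70 windows, and compared with 32851 windows in all. The ETS core CCGGAAG, on either strand, was in 35.7% of the ribosomal protein windows and 8.86% of all windows, and the YY1 word AAGATGG, on either strand, in 17.1% and 6.34%. Pyrimidine words of the TOP kind on the sense strand overlap one another and were CTTTCC with its neighbour CTCTTT, then CCTTTT, further CTTTTC and lastly CTTCCT. Such a word lay wholly between 15 bases before and 25 after the start in 32.9% and 7.55%. A TATAAA box in the 50 bases before the start was in 1.4% and 2.63%. A match describes these letters only, and the background of all windows was not matched for expression level.

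The windows of 4 genes above WT in cKO, from 45 bases before the annotated start to 20 after it, show these words in capitals. Rpl38 (chr11:114668535-114668599, plus strand) holds both an ETS core and a pyrimidine word, Rpl37 (chr15:5116568-5116632, plus strand) an ETS core, and Rplp2 (chr7:141447606-141447670, plus strand) a pyrimidine word. Rps28 (chr17:33824543-33824607, minus strand), the gene with the highest cKO ratio of the family, holds neither in this window. The windows shown were chosen after their values were seen. Of the other genes farthest above WT in cKO, Rpl28 holds a pyrimidine word in the same window, and Rpl41 and Rps16 hold neither word.
Rpl38: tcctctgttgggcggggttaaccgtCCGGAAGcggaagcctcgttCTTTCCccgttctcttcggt
Rpl37: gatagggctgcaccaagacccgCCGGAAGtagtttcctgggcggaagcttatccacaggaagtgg
Rplp2: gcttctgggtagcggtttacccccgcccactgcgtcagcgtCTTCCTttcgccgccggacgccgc
Rps28: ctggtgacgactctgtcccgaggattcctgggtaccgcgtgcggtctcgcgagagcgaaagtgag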

How the data were processed

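Per the labels' protocols, Trizol served for RNA extraction, and each library used 1 µg of RNA and Vazyme's VAHTS V2 kit for messenger RNA. CASAVA, Bowtie2 2.3.2 and GRCm38.p6 are named, without their roles, in the submitters' processing notes. Quantifier, annotation release, strand setting and the treatment of multiply mapping reads: not given in the sources used here. Genes with near-identical copies, overlapping genes and antisense partners are therefore uncertain. The authors deposited estimated counts (whole numbers), TPM and FPKM per gene and per transcript, per the file headers. The estimated counts were the main values, the authors' TPM served for levels between genes and as an alternative, and the deposited FPKM values were not compared. No deposited column of values was left unmapped to a library.

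Counts were scaled by TMM (edgeR 4.0.16, R 4.3.3) on genes with at least 20 counts in a library, with factors of 1.01 (dE3), 0.999 (cKO) and 0.993 (WT). Ratios had exact conditional binomial (Clopper-Pearson) 95% intervals, which cover counting error only, since no molecular identifiers mark PCR copies. A gene was called when its interval excluded 1 and its ratio was at least 2-fold in either direction or, as a smaller size, at least 25% above 1 (20% below, the inverse). The limit for 0 counts was 3 counts. Sequence sharing used 50-base words of GENCODE vM21 transcripts on either strand. Mean transcript length was weighted by the authors' transcript TPM. Promoter sequences are from RefSeq, and 76 of the 87 gene positions in the deposited table equal those of GENCODE vM21.

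Genes named were, by rule, up to 6 higher and 6 lower members per mutant against WT (4 and 4 for dE3 against cKO) whose interval bound nearest 1 lay farthest from 1, the 5 highest and 5 lowest by WT TPM, paralog pairs, stalk and 5S RNP genes, subunits with other names, Myc, Mycn and Ctnnb1, and up to 3 genes per other list. Pseudogenes and promoters printed were chosen after their values were seen. The members and lists were chosen with earlier results of these data known. Alternatives were library totals, DESeq2 1.42.0 size factors, TMM without the members and mitochondrial genes, other count minimums, TPM, leaving out transcripts, adding pseudogenes and leaving out shared members. Some items that the rule names are not reported here.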

Additional observations from a re-analysis of the deposited data

How the results depend on the processing

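Median log2 ratios of dE3 and cKO to WT stayed above 0 under every alternative run. Without each gene's most different transcript, the cKO medians were 0.0675 (all), 0.0776 (large) and 0.0645 (small), calls at 2-fold were 3 for dE3 over WT, 4 for cKO over WT and 3 between the mutants, calls at the 25% size were 25 (17 higher, 8 lower), 23 (16 higher, 7 lower) and 23 (12 higher, 11 lower), so that the absence of lower genes against WT is lost there, and Rpl21 turned to -0.0553 in dE3 against cKO. The remaining transcripts are often minor ones, and the cause was not tested. TPM gave 8 calls at the 25% size in dE3 against WT. Members sharing under 20% of words gave 3, 6 and 5 calls at the 25% size and 0 at 2-fold in dE3 against cKO, since fewer genes were counted. A minimum of 100 counts also gave 0 there. Adding pseudogenes left 5 calls at the 25% size in dE3 against cKO. The family's share in dE3, cKO and WT was 5.74%, 5.66% and 5.04% by TPM, 2.06%, 2.02% and 1.81% with pseudogenes, and 2.07%, 2.02% and 1.82% without mitochondrial genes, and the large subunit's part 59.4%, 60.1% and 60.2% by TPM and 62.7%, 63.3% and 63.4% with pseudogenes. Members under 700 bases, an alternative added after seeing the data, had medians of 0.257 (cKO against WT) and -0.063 (dE3 against cKO). The difference between subunit medians was under 0.06 throughout. No paired analysis was possible because each genotype has 1 library. Genes at low counts, Rpl6l and Rps3a2, are limited by depth.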
